A study of Caenorhabditis elegans with 48 samples.

Results

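The let-7 guide strand stood 108-fold higher in lin-28(0) larvae than in WT larvae at 4 to 7 h of fed growth, while the 3p strand of mir-229 stood 4.76-fold lower, and 12 of the 239 strands tested differed between the genotypes. The comparison took the hourly small RNA libraries of 4, 5, 6 and 7 h of both genotypes, 4 libraries a side and 8 of the 48 libraries analysed. These hours were chosen because the larvae had fed for some hours and had not yet reached the first peak of the let-7 passenger strand, let-7*. Both strains of Caenorhabditis elegans carried xeSi312, a single-copy transgene on chromosome IV that puts a luciferase-GFP fusion and the unc-54 3′UTR under the eft-3 promoter together with unc-119(+). WT had no further change, and lin-28(0) also carried lin-28(xe192), a deletion of the lin-28 locus on chromosome I made by CRISPR. Synchronised L1 larvae of either strain grew without any treatment in 1 liquid culture with OP50 bacteria at 25°C and 1000 animals per mL. Each hour thus gave 1 library of whole animals from the same culture, and every p-value below measures the spread between hours of 1 culture per genotype. Of 437 miRNA strands listed, 388 had at least 1 count in these 8 libraries and the 239 with a mean of at least 10 counts were tested.

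LIN-28 binds let-7 precursors in early larvae and keeps mature let-7 from forming. It belongs to the heterochronic pathway, in which lin-4 and the let-7 relatives miR-48, miR-84 and miR-241 time the early larval stages and let-7 times the passage from larva to adult. A miRNA precursor yields a 5p and a 3p strand, of which the guide is kept by an Argonaute protein and the passenger is mostly lost. let-7-5p is the guide of let-7, and let-7-3p is let-7*.

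Library totals ran from 6856919 counts (WT, 5 h) to 10398892 counts (lin-28(0), 4 h), so that 1 count was worth 0.0962 to 0.146 CPM, the counts of a strand per 1000000 miRNA counts of its library. The 10 most abundant strands held 72.8% to 75.7% of a library. The lin-28(0) library of 4 h stood furthest from the rest of its group, with a median absolute log2 distance of 0.286 against 0.144 to 0.257 for the other 7, and its TMM scaling factor was 1.20 against 0.924 to 1.04. Results that change without this library are given with their values. The lin-28 mRNA itself was not measured in these libraries. In whole animals, fewer cells that hold a strand and less of it per cell cannot be told apart, nor can genotype and culture.

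At the threshold of an adjusted p of 0.01, 12 of the 239 strands (5.02%) differed in level. In lin-28(0), 4 were higher (1.67%) and 8 were lower (3.35%). The model (edgeR, quasi-likelihood F test) held genotype, hour and their interaction, and each difference is that at the middle of the window. The median log2 difference over all 239 strands was -0.03, and 61 strands had an unadjusted p under 0.05. Without TMM scaling the median moved to 0.11, so small differences are read relative to a shift of about that size. The higher strands were miR-355-5p, miR-5592-3p and both strands of let-7. The lower strands were miR-229-3p, miR-70-3p, miR-70-5p, miR-230-5p, miR-44-5p, miR-52-3p, miR-80-5p and miR-237-3p. In CPM, all 4 lin-28(0) libraries lay above all 4 WT libraries for 28 strands (11.7%) and below them for 5 (2.09%), and after TMM scaling for 7 (2.93%) and 6 (2.51%). When each of the 8 libraries was left out in turn, let-7-5p, miR-229-3p and miR-70-3p passed every time, and these were also the 3 strands still called without the lin-28(0) library of 4 h. The other 9 lost their call at least once. With each hour given its own level, as a block shared by both genotypes in place of the straight line, 6 of the 12 did not pass. These were miR-5592-3p (adjusted p = 0.013, edgeR) and, among the lower strands, miR-230-5p (0.041), miR-44-5p (0.070), miR-52-3p (0.031), miR-80-5p (0.059) and miR-237-3p (0.044), while miR-229-3p and both strands of mir-70 passed.

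**Figure D1:**
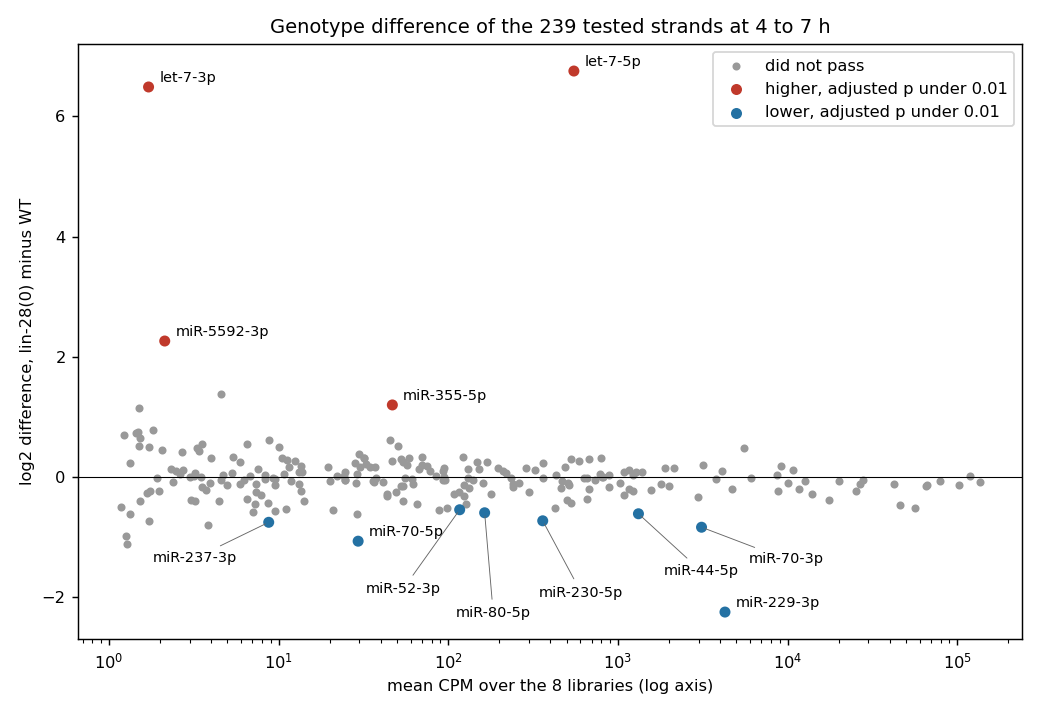
Log2 difference (lin-28(0) minus WT, edgeR) of each of the 239 tested strands against its mean CPM over the 8 libraries on a log axis, with the 12 strands past the threshold in color. let-7-5p and miR-229-3p lie far from the cloud of strands at similar levels, and the other lower strands lie at its lower edge.

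let-7-5p was found at 12.4, 8.17, 8.54 and 7.39 CPM in WT and at 897, 971, 1066 and 1434 CPM in lin-28(0), in the order 4, 5, 6 and 7 h. The lowest lin-28(0) library thus exceeded the highest WT library by far. The log2 difference was 6.75 ± 0.14 (SE), a fold of 108, with an adjusted p of 6.8e-15 (edgeR). let-7* remained rare in both genotypes. It read 0.201 CPM in WT at 4 h and 0 CPM at the other hours, and 2.12, 0.874, 1.23 and 9.30 CPM in lin-28(0). That made 2 counts in all of WT against 116 in lin-28(0), a ratio of 55.9 (95% counting interval 15.1 to 467). The adjusted p of let-7* was 0.0037 (edgeR), and it exceeded the threshold without WT 4 h (0.029), WT 5 h (0.040), WT 7 h (0.060), lin-28(0) 4 h (0.044) or lin-28(0) 5 h (0.010).

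In lin-28(0), let-7-5p rose by 0.31 ± 0.07 log2 units per hour (adjusted p = 0.0088, edgeR), from 897 to 1434 CPM. WT let-7-5p ran from 12.4 to 7.39 CPM, a slope of -0.26 ± 0.08 log2 units per hour that did not pass (adjusted p = 0.081). The difference of these slopes, 0.57 ± 0.11, had the smallest adjusted p of the set, 0.021, and missed the threshold. The rise in lin-28(0) rested on single libraries, since its adjusted p was 0.24 without lin-28(0) 4 h, 0.099 without lin-28(0) 7 h, 0.055 without WT 7 h, 0.035 without lin-28(0) 5 h, 0.019 without WT 4 h and 0.018 without WT 5 h.

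Of the let-7 family, 6 guide-arm strands (5p) were tested and let-7-5p alone passed, with a median log2 difference of 0.08 over the 6. With 5.02% of all strands called, the lack of a call does not set the 5 relatives apart from other strands. miR-48-5p, which acts with miR-84 and miR-241 on the second larval stage, read 29.4, 37.6, 41.3 and 49.4 CPM in WT and 43.0, 54.5, 85.3 and 62.8 CPM in lin-28(0). It was higher in lin-28(0) at every hour but the ranges overlapped, with a log2 difference of 0.51 ± 0.17 (adjusted p = 0.080, edgeR). Without lin-28(0) 7 h its adjusted p fell to 9.0e-04 at a log2 difference of 0.75. miR-84-5p, at 633 to 914 CPM in WT and 778 to 975 CPM in lin-28(0), differed by -0.01 ± 0.11. miR-795-5p, at 363 to 487 CPM in WT and 418 to 627 CPM in lin-28(0), differed by 0.16 ± 0.13. miR-793 and miR-794-5p differed by -0.30 ± 0.11 and -0.29 ± 0.14, and neither passed. miR-241-5p lay below the count minimum and was not tested.

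Among the 3p strands of the family, let-7* was called and miR-84-3p (0.17 ± 0.13), miR-795-3p (0.02 ± 0.16) and miR-241-3p (0.02 ± 0.24) were not, while miR-48-3p and miR-794-3p lay below the minimum. miR-241-3p read 2.21, 2.63, 4.21 and 9.46 CPM in WT and 2.31, 3.62, 6.37 and 6.85 CPM in lin-28(0). Both genotypes thus covered nearly the same range of this strand.

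lin-4, which represses lin-28 and lin-14 once it accumulates, was close to absent at these hours. lin-4-5p read 0.501, 1.17, 1.59 and 1.50 CPM in WT and 0.962, 1.37, 1.79 and 1.71 CPM in lin-28(0). The ranges overlapped, the log2 difference was 0.22 ± 0.37 (adjusted p = 0.77, edgeR), and lin-4-3p gave 1 count in WT and none in lin-28(0). miR-237-5p, which shares the lin-4 seed, read 407, 483, 492 and 628 CPM in WT and 398, 494, 565 and 600 CPM in lin-28(0), a log2 difference of -0.10 ± 0.11. Its partner miR-237-3p was the 1 called strand of the 3 tested in this family, against 5.02% over all strands. It read 9.62, 9.48, 11.0 and 12.0 CPM in WT against 5.58, 5.99, 7.15 and 9.18 CPM in lin-28(0). The groups did not overlap, and the log2 difference was -0.76 ± 0.17 (adjusted p = 0.0092, edgeR). That call was lost in each of the 8 fits that left out 1 library, with adjusted p-values of 0.014 to 0.090.

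Among the higher strands outside the let-7 family, miR-355-5p was the most abundant. It read 29.1, 18.8, 32.9 and 23.5 CPM in WT and 102, 56.2, 49.3 and 63.1 CPM in lin-28(0). Every lin-28(0) library lay above every WT library, with the highest value of the window at 4 h. Before the window, at 0, 1, 2 and 3 h, it read 15.4, 32.3, 60.4 and 34.6 CPM in WT. In lin-28(0) it then read 75.9, 125, 144 and 205 CPM. The log2 difference at 4 to 7 h was 1.20 ± 0.19, a fold of 2.29 (adjusted p = 6.8e-04, edgeR). The adjusted p was 0.014 without lin-28(0) 4 h, 0.014 without WT 5 h and 0.043 without WT 7 h. The miR-355-3p strand had no count in any of the 8 libraries, so the ratio of its arms could not be followed. miR-5592-3p read 0.100, 1.46, 0.683 and 0.692 CPM in WT and 4.14, 2.00, 4.47 and 3.55 CPM in lin-28(0). The groups did not overlap, but the strand lies under the 10 CPM asked of named strands and was named after its values were seen. Its 23 counts in WT against 128 in lin-28(0) gave a ratio of 5.37 (95% counting interval 3.43 to 8.77), and its adjusted p was 0.0063 (edgeR). The call was lost without WT 4 h (0.048), WT 7 h (0.090), lin-28(0) 4 h (0.062) or lin-28(0) 5 h (0.010). Its mean was under the count minimum in WT, so it entered the test through lin-28(0), as let-7* did. In all, 7 tested strands were under the minimum in WT and 4 in lin-28(0).

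The largest fall was that of miR-229-3p. It read 6203, 6976, 6655 and 7858 CPM in WT and 1096, 1413, 2095 and 1936 CPM in lin-28(0). The highest lin-28(0) library thus reached less than the lowest WT library by a wide margin. The log2 difference was -2.25 ± 0.13, 4.76-fold lower than WT (adjusted p = 6.6e-09, edgeR). The partner strand of the same precursor was not called. In CPM its ranges overlapped, and it was lower in lin-28(0) at 6 h and higher at the other hours. miR-229-5p read 2968, 3241, 4377 and 4526 CPM in WT and 4550, 4286, 4063 and 4744 CPM in lin-28(0), a log2 difference of 0.10 ± 0.10 (adjusted p = 0.52).

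mir-229 is the outermost gene of a run on chromosome III in which mir-64, mir-65 and mir-66 follow it without another gene between them (RefSeq, WBcel235). Of the 8 strands of this cluster, miR-229-3p alone passed the test, against 5.02% over all strands. Of the cluster guides, miR-64-5p differed by -0.06 ± 0.11, miR-65-5p by -0.08 ± 0.10 and miR-66-5p by -0.05 ± 0.10. miR-64-5p, for example, read 16320 to 21704 CPM in WT and 19198 to 21977 CPM in lin-28(0). Of the passengers, at 2.11 to 41.8 CPM, miR-64-3p differed by 0.21 ± 0.16, miR-65-3p by 0.31 ± 0.24 and miR-66-3p by -0.12 ± 0.20. The median over the 8 strands was -0.06.

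The ratio of the arms was then tested for the 79 precursors whose 3p and 5p strands were both measured, on the log2 of the ratio of CPM plus 1 (limma). A total of 4 precursors passed (5.06%), namely mir-229, mir-90, mir-52 and let-7, and the first 3 had a lower 3p share in lin-28(0). For mir-229 the log2 ratio of 3p to 5p was 1.06, 1.11, 0.60 and 0.80 in WT and -2.05, -1.60, -0.96 and -1.29 in lin-28(0). The strand held in excess was thus the 3p strand in all 4 WT libraries and the 5p strand in all 4 lin-28(0) libraries. The difference was -2.37 ± 0.18 (adjusted p = 1.4e-05) and passed in each fit with 1 library left out. For let-7 the result was set by the added 1 CPM, since let-7* had 2 counts in all of WT. By counts, let-7* was 55.9-fold higher in lin-28(0) with an interval of 15.1 to 467 that includes the 108-fold of let-7-5p, so the direction of a change in the let-7 ratio was not detectable at this depth.

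The ratios of mir-90 and mir-52 moved less than that of mir-229. For mir-90 the log2 ratio was 9.75, 10.05, 9.90 and 9.88 in WT and 8.92, 9.17, 9.41 and 9.33 in lin-28(0), without overlap. The difference was -0.69 ± 0.13 (adjusted p = 0.0084, limma). The mir-90 guide, miR-90-3p, was among the most abundant strands, at 60504 to 69460 CPM in WT and 42052 to 55775 CPM in lin-28(0). It lay just outside the threshold by its level, at -0.51 ± 0.12 (adjusted p = 0.0135, edgeR), although its groups did not overlap. For mir-52 the ratio fell from -5.93 ± 0.48 to -6.66 ± 0.48 with overlapping ranges, a difference of -0.73 ± 0.13 (adjusted p = 0.0084, limma). The mir-90 call was lost in each of the 8 fits with 1 library left out (0.011 to 0.067), and the mir-52 call in all of them but the fit without WT 5 h (0.0017), its other adjusted p-values lying at 0.023 to 0.068.

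Both strands of mir-70, a gene on chromosome V, were lower in lin-28(0) while they rose in both genotypes. miR-70-3p, the guide, read 1773, 2339, 4502 and 7238 CPM in WT and 1472, 1481, 2409 and 3691 CPM in lin-28(0). The ranges overlapped because of the rise, but lin-28(0) was below WT at each of the 4 hours. The log2 difference was -0.84 ± 0.11 (adjusted p = 1.6e-04, edgeR). miR-70-5p, the passenger, read 12.9, 25.8, 53.0 and 62.6 CPM in WT and 8.08, 11.7, 24.3 and 37.2 CPM in lin-28(0). It too was below WT at each hour, by a log2 difference of -1.07 ± 0.16 (adjusted p = 6.0e-04), which became 0.012 without lin-28(0) 4 h. The difference in the log2 ratio of the mir-70 arms was 0.18 ± 0.17 and did not pass (adjusted p = 0.56, limma).

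Of the 5 remaining lower strands, miR-230-5p and miR-44-5p rose over the window in lin-28(0), a call that both lost without lin-28(0) 4 h. None of the 5 passed a test of change over time in WT. miR-230-5p read 363, 396, 406 and 546 CPM in WT and 177, 244, 350 and 405 CPM in lin-28(0). lin-28(0) was below WT at each hour with overlapping ranges, at a log2 difference of -0.73 ± 0.12 (adjusted p = 8.3e-04, edgeR), which became 0.021 without lin-28(0) 4 h and 0.027 without WT 7 h. Its partner miR-230-3p differed by -0.43 ± 0.12 and did not pass (adjusted p = 0.031).

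miR-44-5p read 1098, 1426, 1496 and 2010 CPM in WT and 625, 860, 1394 and 1671 CPM in lin-28(0). The gap was widest at 4 h and narrow at 6 h, and the log2 difference was -0.61 ± 0.11 (adjusted p = 0.0024, edgeR). Its call was lost without WT 5 h (0.012), WT 7 h (0.036), lin-28(0) 4 h (0.038) or lin-28(0) 5 h (0.015). The mir-44 gene lies next to mir-43 on chromosome II, with mir-42 nearby (RefSeq, WBcel235). The same arm of these neighbours lay just outside the threshold. miR-42-5p differed by -0.52 ± 0.12 (adjusted p = 0.0135) and miR-43-5p by -0.52 ± 0.13 (adjusted p = 0.0155). The 3p guide miR-44-3p shares reads with miR-45-3p, which makes their separate values uncertain, and differed by -0.23 ± 0.14.

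miR-52-3p and miR-80-5p were the smallest falls that passed. miR-52-3p, the passenger of a member of the embryonic miR-51 family, read 97.1, 110, 157 and 173 CPM in WT and 90.2, 85.1, 98.1 and 125 CPM in lin-28(0), a log2 difference of -0.55 ± 0.11 (adjusted p = 0.0067, edgeR). miR-80-5p, the passenger of a member of the bantam-related miR-58 family, read 226, 174, 180 and 180 CPM in WT and 132, 146, 110 and 165 CPM in lin-28(0). Its groups did not overlap, and it had a log2 difference of -0.60 ± 0.13 (adjusted p = 0.0092). Each kept its call in 1 of the 8 fits with a library left out, the one without lin-28(0) 7 h, and had adjusted p-values of up to 0.075 (miR-52-3p) and 0.17 (miR-80-5p) in the others. Their guides miR-52-5p (0.19 ± 0.10) and miR-80-3p (-0.21 ± 0.10) did not pass.

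**Figure D2:**
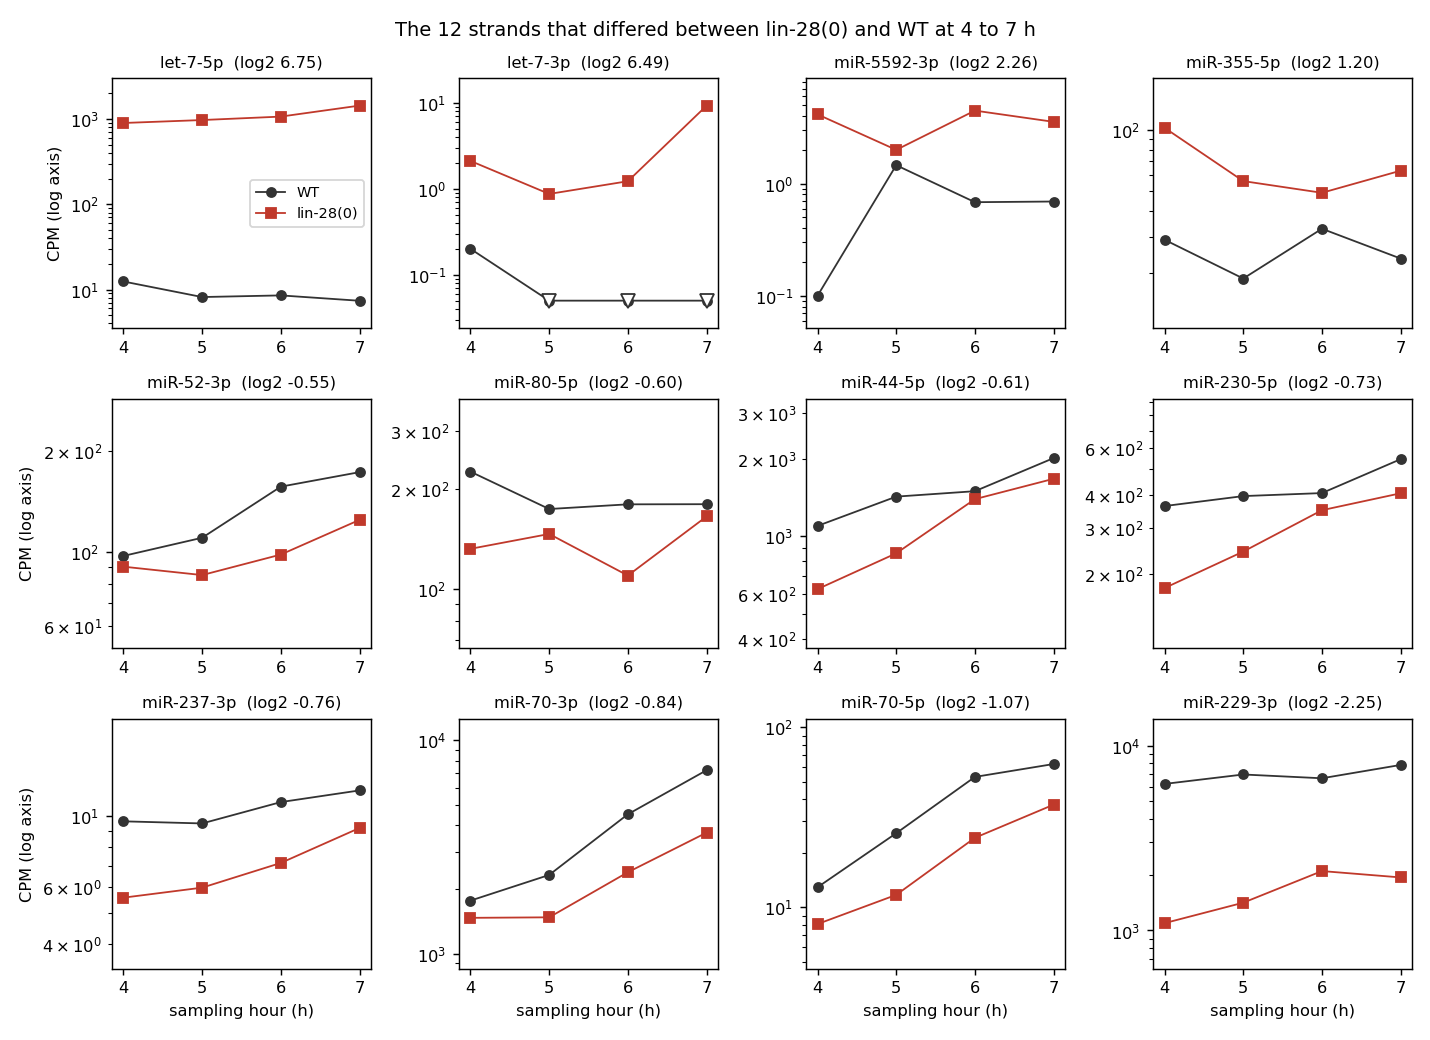
CPM on a log axis against the sampling hour for the 12 strands past the threshold, 1 library per point, WT in grey circles and lin-28(0) in red squares, with open triangles for values of 0 CPM drawn at the foot of the axis. The genotypes are apart at all hours for miR-229-3p, let-7-5p and miR-355-5p, while miR-44-5p, miR-52-3p and miR-230-5p come close at single hours.

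Few strands changed over the 4 hours. In WT, 3 strands rose (1.26%) and none passed downward, with 47 strands at an unadjusted p under 0.05 in either direction. These were miR-70-3p (0.67 ± 0.07 log2 units per hour), miR-70-5p (0.75 ± 0.10) and miR-43-5p (0.48 ± 0.08). In lin-28(0), 9 strands rose (3.77%) and none passed downward, with 52 at an unadjusted p under 0.05. DESeq2 called more in both, 10 up and 2 down in WT and 14 up and 3 down in lin-28(0). The 9 were miR-70-5p (0.85 ± 0.11 per hour), miR-44-5p (0.59 ± 0.07), miR-70-3p (0.56 ± 0.07), miR-42-5p (0.55 ± 0.08), miR-230-5p (0.50 ± 0.08), miR-43-5p, miR-230-3p, miR-229-3p (0.40 ± 0.08) and let-7-5p. Without lin-28(0) 4 h the count in lin-28(0) dropped to 1, that of miR-70-3p. The adjusted p (edgeR) was then 0.021 for miR-70-5p, 0.043 for miR-44-5p, 0.11 for miR-43-5p, 0.12 for miR-42-5p and 0.15 for miR-230-5p. It was 0.24 for let-7-5p, 0.29 for miR-230-3p and 0.55 for miR-229-3p, whose rise passed in 3 of 8 fits with 1 library left out. The WT rise of miR-43-5p passed in 5 of 8 such fits. In WT the count dropped to 1 without WT 4 h or WT 7 h. It rose to 6 without WT 6 h, to 7 without lin-28(0) 6 h and to 8 without lin-28(0) 7 h. No strand passed the test of a difference in slope between the genotypes (edgeR, 40 strands at an unadjusted p under 0.05, 1 call by DESeq2), so the longer list in lin-28(0) does not show that its strands rose faster. Without lin-28(0) 7 h that test called 6 strands upward and 2 downward.

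Equal sampling hours were compared, and whether the cultures were at the same point of development was not tested. The comparison was therefore repeated with lin-28(0) libraries taken 1 h later, 5 to 8 h against 4 to 7 h of WT. let-7-5p (7.37), let-7* (let-7-3p, 7.25) and, with an adjusted p of 0.0012 (edgeR), miR-355-5p (1.04) were still called, and miR-5592-3p (2.16, adjusted p = 0.017) was not. Of the 8 lower strands, miR-229-3p stayed past the threshold at -1.97 (adjusted p = 2.5e-08) and no other did. miR-70-3p moved to -0.32 (0.050), miR-70-5p to -0.31 (0.22), miR-230-5p to -0.29 (0.092) and miR-44-5p to -0.12 (0.55), the adjusted p standing in parentheses. miR-52-3p moved to -0.30 (0.083), miR-237-3p to -0.35 (0.19) and miR-80-5p to -0.49 (0.027). All of these strands except miR-80-5p had higher CPM at 7 h than at 4 h in both genotypes. With the opposite shift, lin-28(0) at 4 to 7 h against WT at 5 to 8 h, the falls were larger for 7 of the 8, for example at -1.50 for miR-70-3p and -0.99 for miR-44-5p. That of miR-80-5p was -0.56 and did not pass (adjusted p = 0.029, edgeR). Of the higher strands, let-7-5p alone was still called with this opposite shift (6.57, adjusted p = 3.8e-07, edgeR). miR-355-5p stood at 1.33 (0.012), let-7* at 6.72 (0.047) and miR-5592-3p at 1.79 (0.023), again with the adjusted p in parentheses. miR-48-5p was called with lin-28(0) 1 h later (0.98, adjusted p = 0.0017) and stood at -0.14 with the opposite shift, so its sign depended on the matching of hours.

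**Figure D3:**
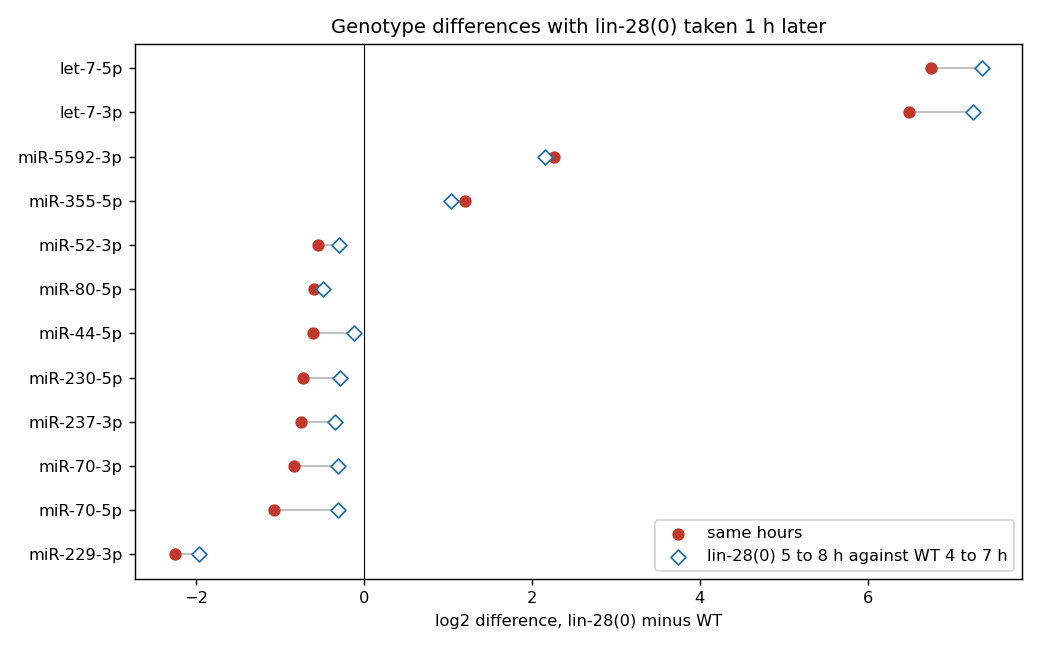
Log2 difference (lin-28(0) minus WT, edgeR) of the 12 strands past the threshold at equal hours (red circles) and with lin-28(0) libraries of 5 to 8 h against WT of 4 to 7 h (open diamonds). miR-355-5p stays above 1 and miR-229-3p stays near -2, while the other lower strands move towards 0.

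The genotype difference of the early hours was compared with that of 8 to 11 h by a test of the change itself over 241 strands. It was called for 4 strands (1.66%), all upward. miR-44-5p went from lower in lin-28(0) at 4 to 7 h to higher at 8 to 11 h, where it read 2870, 1496, 657 and 298 CPM in WT and 2182, 2097, 1340 and 944 CPM in lin-28(0). The change was 1.38 ± 0.14 (adjusted p = 1.0e-04, edgeR). In both genotypes the strand was highest at 8 h over 0 to 11 h, and from there it fell more steeply in WT. miR-230-5p changed by 1.14 ± 0.16 (adjusted p = 9.4e-04), miR-42-5p by 1.19 ± 0.21 (0.0051) and miR-230-3p by 0.89 ± 0.15 (0.0034). Without lin-28(0) 4 h, miR-42-5p (0.032) and miR-230-3p (0.023) did not pass, and the count of 4 became 2 without WT 5 h, WT 9 h, lin-28(0) 4 h, lin-28(0) 7 h, lin-28(0) 9 h or lin-28(0) 10 h and 7 without WT 11 h. miR-229-3p kept its difference, with a change of 0.10 ± 0.16. For let-7-5p the change of 1.23 ± 0.33 did not pass (adjusted p = 0.073), although lin-28(0) reached 3987 CPM at 8 h and 37884 CPM at 11 h while WT went from 18.2 to 111 CPM.

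**Figure D4:**
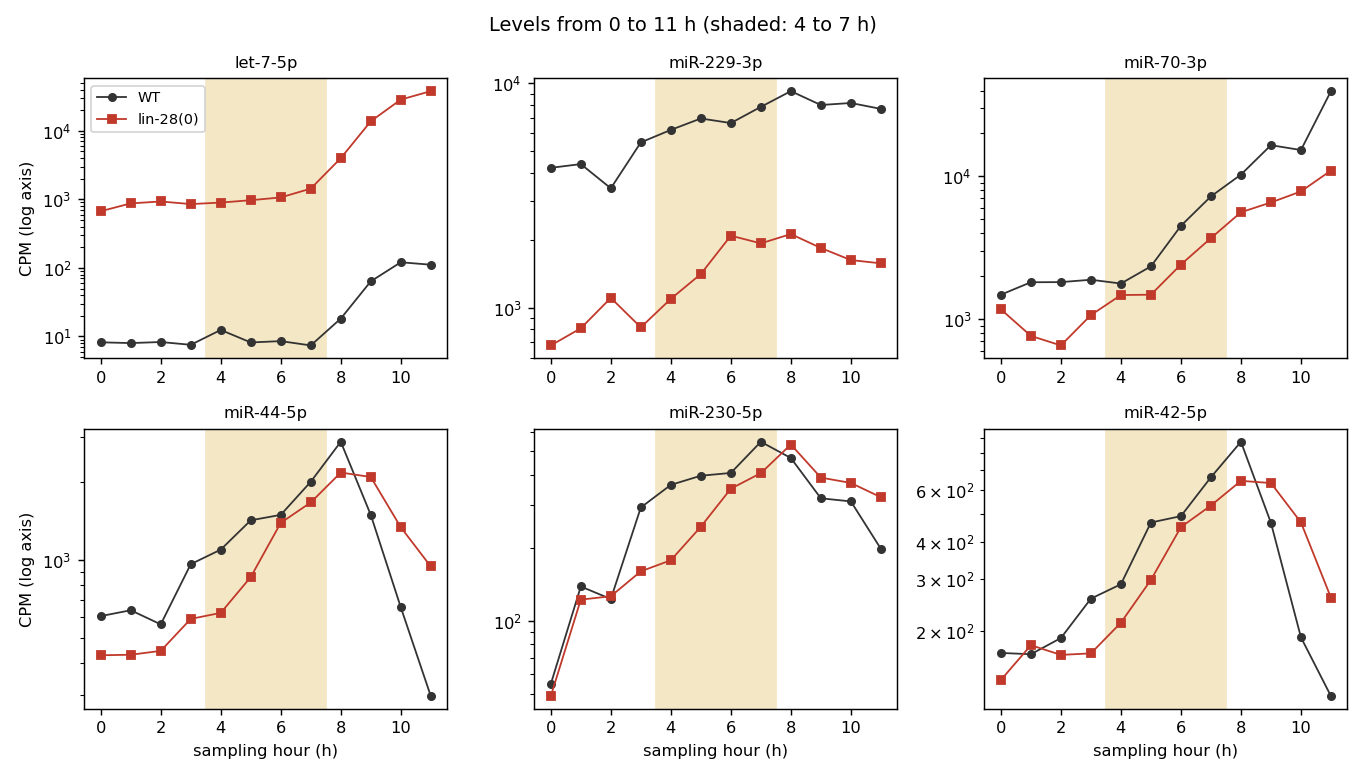
CPM on a log axis against the sampling hour from 0 to 11 h for 6 strands, 1 library per point, WT in grey circles and lin-28(0) in red squares, with 4 to 7 h shaded. miR-229-3p and let-7-5p are apart at every hour, and the curves of miR-44-5p, miR-230-5p and miR-42-5p swap their order between 7 and 9 h.

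The lists of the other families held a single arm of each precursor, and none of the listed strands was called. For sets of 3 to 7 strands this does not set them apart from all strands, of which 5.02% were called. The called strands miR-52-3p, miR-80-5p and miR-44-5p are the opposite arms of family members and were not on these lists. The miR-35 family, known for its role in embryos, was tested with 7 of its 3p strands, of which none passed and the median log2 difference was 0.24. In CPM, 3 of the 7 had all lin-28(0) libraries above all WT libraries, against 11.7% of all strands, and after TMM scaling none did. miR-35-3p read 799, 782, 540 and 564 CPM in WT and 1075, 900, 856 and 825 CPM in lin-28(0), a log2 difference of 0.31 ± 0.11 (adjusted p = 0.085, edgeR). The 6 guides of the miR-51 family, which acts in embryonic development, had a median of 0.17. The nearest to a call was miR-54-3p at 0.48 ± 0.12 (adjusted p = 0.018), with 4895, 4625, 3910 and 3668 CPM in WT and 11135, 5514, 5584 and 5141 CPM in lin-28(0). Its highest value came from lin-28(0) at 4 h, the library with the highest scaling factor.

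Of the bantam-related miR-58 family, a set needed for full body size, none of the 4 listed strands tested passed, and their median was -0.14. Their summed level was 199411 to 229677 CPM in WT and 205471 to 227221 CPM in lin-28(0). The 3 tested strands listed for the miR-44 family (median -0.23), the 3 for the miR-72 family (median -0.09) and the 3 for the miR-2 family (median -0.07) also gave no call. Of miR-238 and the miR-239 pair, miR-239b-5p had the largest difference without a call, at 1.17 to 4.04 CPM in WT and 3.99 to 10.8 CPM in lin-28(0) (log2 difference 1.38 ± 0.35, adjusted p = 0.018, edgeR).

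**Figure D5:**
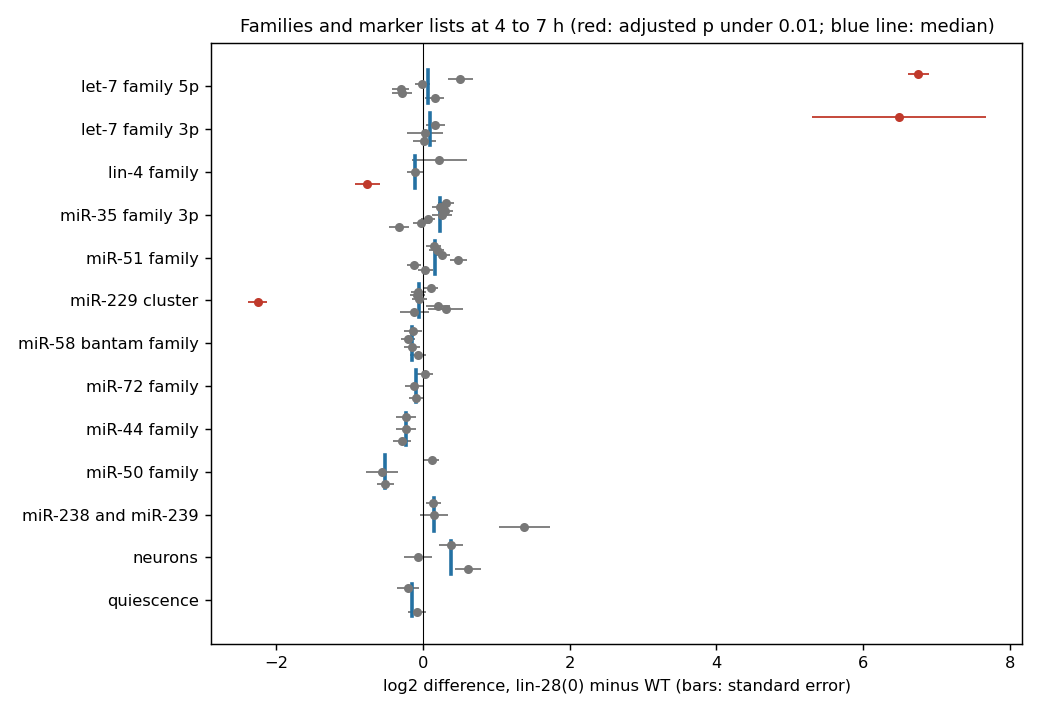
Log2 difference (lin-28(0) minus WT, edgeR) of each tested strand in the families and marker lists, with its standard error, the list median as a blue line and strands past the threshold in red. The called strands are single members, 1 in each of 4 lists, and apart from miR-239b-5p the other members lie within 1 log2 unit of 0.

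Strands that mark tissues were present in both genotypes and none passed the test, where 5.02% of all strands did. miR-1-3p, the muscle miRNA, read 54709, 35591, 61793 and 52879 CPM in WT and 47198, 36765, 31749 and 48791 CPM in lin-28(0). It was lowest at 5 h in WT and at 6 h in lin-28(0), with a log2 difference of -0.46 ± 0.16 (adjusted p = 0.085, edgeR). miR-60-3p of the intestine (-0.11 ± 0.24) and miR-228-5p of glia and seam cells (-0.11 ± 0.11) differed by less. Of the neuronal strands, lsy-6-3p, which sets the identity of a taste neuron, differed by -0.07 ± 0.19, miR-124-3p of sensory neurons by 0.39 ± 0.17 and miR-791-3p of neurons that sense carbon dioxide by 0.62 ± 0.18 (adjusted p = 0.038). The summed level of these 3, without TMM scaling, was 87.4 to 102 CPM in WT and 115 to 150 CPM in lin-28(0). In CPM, 1 of the 3 had all lin-28(0) libraries above all WT libraries, against 11.7% of all strands, and after TMM scaling none did. The part of any change in tissue makeup in the strands above was not tested. miR-71-5p, a strand tied to survival of starved larvae, read 124182 to 147312 CPM in WT and 126008 to 153112 CPM in lin-28(0), with a log2 difference of -0.08 ± 0.12.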

How the data were processed

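Small RNA libraries of WT and lin-28(0) larvae from 4 to 7 h were analysed, with hour and genotype from the labels. The deposited counts per miRNA strand were made by the authors, who, per the study's methods, trimmed adapters and aligned reads to ce10 with Bowtie through QuasR (versions not given in the sources used here), then counted reads in the strand's orientation that start close to its annotated 5′ end. A read may match many loci, so identical strands share reads. Per the labels, the libraries were sequenced in 3 reactions after different kits, and which of them gave the counts of a library is not stated, so kit could not be examined as a batch. The deposited log2 values, which the authors made from depth-scaled counts plus 8, were recalculated within 0.0005 and not tested as such.

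Strands with a mean of at least 10 counts over the 8 libraries were tested with edgeR 4.0.16 (TMM, glmQLFit, glmQLFTest; R 4.3.3) in a model of genotype, hour centred at 5.5 h and their interaction. This leaves 4 residual degrees of freedom. The spline model and the threshold of 0.01 that the study used for ebax-1(tm2321) against wild type served as the guide. Adjusted p-values are Benjamini-Hochberg values over all tested strands. Arm ratios were tested with limma 3.58.1. Levels are CPM of miRNA counts, thus shares and not amounts per animal. Intervals of count ratios are exact at 95% and cover counting error only, as the reads carry no molecular identifiers. Alternatives included DESeq2 1.42.0, other scalings and filters, a block for hour, a spline, shifts of 1 h and each library left out. No library was a duplicate of another. The edgeR and limma tests were also run on simulated, mutually independent libraries without an hour trend. Such data cannot show how the p-values behave for serial samples of 1 culture.

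Named are strands of the lin-4 and let-7 families, up to 10 called strands in each direction whose mean reached 10 CPM, their partner strands, for change over time the 5 largest past the threshold, and examples of family and marker lists. The hours, the strands and the lists were chosen with earlier results of these data known. Gene neighbours are from RefSeq WBcel235, and no positions were used, since the counts rest on ce10.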

Additional observations from a re-analysis of the deposited data

Results flagged for a closer look

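A few single libraries lay apart from the others of their genotype. This held for 3 of the 58 sets of 4 libraries examined for named strands. Chance would give about 1 in 20 for independent values, which hourly samples of 1 culture need not be. miR-80-5p read 226 CPM in WT at 4 h against 174 to 180 CPM at the other hours, and without that library its log2 difference was -0.46 (adjusted p = 0.16, edgeR). let-7-3p read 0.201 CPM in WT at 4 h against 0 CPM at the others, which is 2 counts. let-7-3p read 9.30 CPM in lin-28(0) at 7 h against 0.874 to 2.12 CPM at 4 to 6 h, and it read 77.2 CPM at 8 h.

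The genotype difference changed between 4 to 7 h and 8 to 11 h for 4 strands by a test of the change (edgeR). The change was 1.38 for miR-44-5p, 1.19 for miR-42-5p, 1.14 for miR-230-5p and 0.89 for miR-230-3p, each on the log2 scale and upward in lin-28(0) relative to WT.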

How the results depend on the processing

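Across the 20 alternatives, let-7-5p and miR-229-3p kept their direction and their call. In the words below, higher and lower refer to lin-28(0) against WT, and the cause of a change was not tested. With the sampling hour as a replicate block, 3 strands were lower and 2 precursors had a lower ratio of 3p to 5p, let-7 (set by the added 1 CPM) among them. The deviations of same-hour libraries correlated at 0.287, 0.329, -0.339 and 0.502 (4 to 7 h), and 2 of 4 WT libraries correlated best with their own hour. So few values cannot decide whether same-hour libraries form pairs. The main model did not take them as pairs, and the calls lost with the hour as a block are given above. With no hour term, 2 strands were higher, 1 lower and 2 ratios lower. DESeq2 size factors gave 2 higher and 1 strand falling over time in lin-28(0). Total counts gave 2 higher and 4 lower, 1 falling over time in lin-28(0), and 2 strands changed between 4 to 7 and 8 to 11 h. limma gave 2 higher, 4 lower and 1 falling in lin-28(0). DESeq2 gave 13 lower, 1 upward slope difference, 10 rising and 2 falling over time in WT, and 14 rising and 3 falling in lin-28(0). With no filter, 7 were higher, 3 slope differences were upward, 8 rose and 1 fell in WT, 15 rose and 2 fell in lin-28(0), and 2 ratios were lower. A mean of 10 over 48 libraries, and likewise a mean of 100 over the 8, gave 2 higher, 5 lower and 1 falling in lin-28(0). With lin-28(0) 1 h later, 4 were lower, 1 slope difference was upward, 1 strand fell in WT and 3 in lin-28(0), and 2 ratios were lower. With WT 1 h later, 1 was higher and 1 fell in WT. The spline over 48 libraries gave 3 lower.

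With single libraries left out, the counts ranged from 1 to 6 higher and 2 to 11 lower, 0 to 6 upward and 0 to 2 downward slope differences, 1 to 8 rising and 0 to 3 falling in WT, 1 to 12 rising and 0 to 2 falling in lin-28(0), 2 to 3 lower ratios, and 2 to 7 changes against 8 to 11 h.

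Signs turned only for strands that were never called at equal hours with all libraries. miR-84-5p (main value -0.01) was 0.13 with total counts, 0.14 with limma, 0.013 with the 48-library filter, 0.015 with the mean of 100, 0.15 with lin-28(0) 1 h later, and -0.060 to 0.095 with 1 library left out. miR-237-5p was 0.033 with total counts, 0.034 with limma and 0.16 with lin-28(0) 1 h later. miR-241-3p was -0.065 with no hour term, -0.69 with the spline, -1.29 with WT 1 h later, and -0.11 to 0.28 with 1 library left out. miR-795-3p was -0.041 with the spline, -0.037 with WT 1 h later, and -0.087 to 0.26 with 1 library left out. lin-4-5p was -0.28 with the spline, -1.49 with WT 1 h later, and -0.024 to 0.39 with 1 library left out. miR-84-3p was -0.14 with the spline and -0.17 with WT 1 h later. With WT 1 h later, miR-48-5p was -0.14 and miR-795-5p -0.046. At 3 counts a strand stood at 0.288 to 0.438 CPM, and differences of strands near that level were not detectable at this depth.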
